A study of Drosophila melanogaster with 46 samples.

Results

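DGRP_28262 is an inbred strain of Drosophila melanogaster from the Drosophila Genetic Reference Panel (DGRP), a set of lines bred from wild flies, and 1 of 23 lines whose eye-antennal discs were profiled by ATAC-seq. ATAC-seq uses the transposase Tn5 to cut and tag open DNA, so the reads over a region measure how accessible it was. The line has 2 libraries, replicate 1 with no suffix in its title and replicate 2 with the suffix IR, which the labels leave unexplained. They were set against the 29 libraries of the other 22 lines, of which 15 have no suffix and 14 have it. In all 31 libraries the genotype was the line itself, with no transgene or agent named, and the discs were dissected by hand from wandering larvae raised at 25 °C. The labels give neither the sex of the larvae nor the number of discs per library. The series, which holds 46 samples, looks for loci at which lines differ in accessibility, and its other 15 samples are not analysed here.

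The deposited counts cover 30774 regions on the genome build dm3. A region was kept for DGRP_28262 where each of its libraries deviated the same way from the mean of the other libraries of its own kind, with or without the suffix. Of 30773 regions tested, 19368 (62.9%) were kept, with 9980 higher and 9388 lower in both libraries, and 11405 deviated in opposite directions. In the other 7 lines with 2 libraries the kept share was between 36.7% and 66.9%. Across regions, the deviations of the 2 libraries of DGRP_28262 correlated at r = 0.441, against -0.402 to 0.517 in those 7 lines. These are descriptions over regions that share 2 libraries. The kept region nearest to the boundary had deviations of -1.92e-06 in replicate 1 and -0.41 in replicate 2 on the log2 scale, and the nearest region left out had 8.06e-06 and -0.10.

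Accessible regions of a tissue include promoters and enhancers, the DNA elements from which its genes are controlled, and the eye-antennal disc is the larval precursor of the eye and the antenna. Inbred lines can differ there by single base changes, by small insertions and deletions, and by transposable elements, mobile sequences that occur in many near-identical copies scattered over the genome and whose positions differ between strains. A read from such a copy can match several places equally well. The authors' treatment of reads with several matches is not stated in the labels or file header, so counts in repeated sequence carry that uncertainty. More copies of a sequence and more accessible DNA per copy cannot be told apart in these counts. No genome or gene annotation of dm3 was used here, so regions are named by chromosome arm and position, with no gene, exon or sequence.

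The libraries of DGRP_28262 held 9647127 counts in replicate 1 and 4901654 in replicate 2, against a median of 6283136 over all 31 libraries. Whether a line's 2 libraries came from separate dissections is not labelled, so the p-values cover only the differences among these libraries, and those may be technical. Their spread comes from the 8 lines with 2 libraries and leaves 7 residual degrees of freedom.

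DGRP_28262 differed from the mean of the other lines mainly at regions where it was higher. By edgeR's quasi-likelihood F-test with Benjamini-Hochberg adjustment over all regions, at a threshold of 0.05, 159 regions were higher (0.517% of those tested) and 7 were lower (0.0227%). All 166 were among the kept regions. At an unadjusted p under 0.05 there were 1993 higher and 584 lower regions. The other 7 lines with 2 libraries had 11 to 114 higher and 4 to 47 lower regions in the same model. Of the lines with 1 library, DGRP_25185 had the most, with 262 higher and 17 lower. Many of the 159 regions were neighbours. With called regions joined across gaps of at most 10000 bp, they fell in 71 places, a number not computed for the other lines. Both libraries of DGRP_28262 lay above all 29 others in 220 regions (0.715%), of which 100 were called higher. They lay below all 29 others in 82 regions (0.266%), of which 3 were called lower. In the other 7 lines with 2 libraries, both libraries lay above all others in 40 to 234 regions and below all others in 49 to 376. The counts for DGRP_28262 were inside those ranges. Just inside the threshold was the region 3R:7808902-7809348 (adjusted p = 0.0496) and just outside it 2R:7281567-7282093 (adjusted p = 0.0511, edgeR). The region 3R:7808902-7809348 was called higher against the mean of the other lines. There, 10 other libraries lay above both of DGRP_28262 and 17 below both, and the lowest held 0 counts. Without replicate 1 of DGRP_28262, edgeR called 110 regions higher and 1 lower, and without replicate 2 it called 0 in either direction, with 2069 higher and 449 lower at an unadjusted p under 0.05. A covariate for the X to autosome ratio of the libraries gave 103 higher and 2 lower regions, a covariate for their first principal component gave 528 and 264, and a mean count of at least 50 per region gave 57 and 9.

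**Figure D1:**
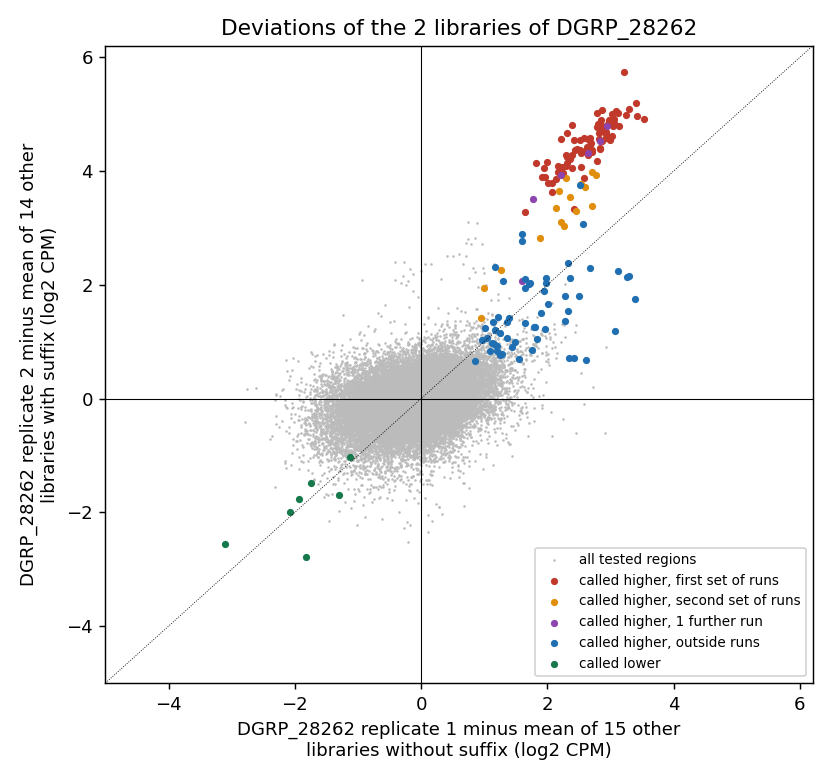
Each point is a tested region. The x axis gives the deviation of DGRP_28262 replicate 1 from the mean of the 15 other libraries without the suffix. The y axis gives that of replicate 2 from the mean of the 14 others with it. Both are in log2 CPM, the log2 of counts scaled to library totals adjusted by TMM normalization factors. Regions in runs lie above the dotted line of equal deviation, where replicate 2 deviated more than replicate 1, and the regions called lower lie near that line.

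The regions called higher were crowded into short stretches of the genome. Of the 159 higher regions, 102 (64.2%) lay in 18 runs, where a run is at least 4 called regions with gaps of at most 10000 bp. This grouping was chosen after the calls were seen. All 102 tested regions inside the spans of the 18 runs were called higher. Their median log2 fold change, DGRP_28262 over the mean of the other lines, was 3.76, with a range of 1.23 to 5.05. In 86 of the 102 regions both libraries of the line lay above all 29 others. Without replicate 1, 98 of the 102 were called, at a median log2 fold change of 4.46, and without replicate 2 edgeR called 0 of them, at a median of 2.75.

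Replicate 2 stood further out than replicate 1 in all of these regions. The median deviation over the 102 regions was 4.36 in replicate 2 and 2.59 in replicate 1, and replicate 2 deviated more in 102 of 102. The runs held 0.175% of all counts in replicate 1 (exact Clopper-Pearson 95% interval 0.172% to 0.177%) and 0.857% in replicate 2 (0.849% to 0.865%). In the 29 other libraries they held between 0.0206% and 0.0768%. These intervals cover counting error only. Both libraries of the line were above all others, and replicate 2 was 4.90 times replicate 1. The regions were called higher in these same libraries, so a share above the median of the others follows from that choice. Lying above all others is made more likely by it. This holds for each run and set of called regions below.

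The 18 runs were grouped by how their levels varied across the other lines, by joining runs with a pairwise r of at least 0.8 to any member of a set. Over the 29 libraries of the other lines, without those of DGRP_28262, the summed level of 13 runs correlated with a median pairwise r of 0.929, from 0.695 to 0.963 (median Spearman's rho 0.912). Without the 2 libraries farthest from the median it was 0.910. These 13 runs, with 80 regions, form the first set: 3 lie on 2R, 6 on 3L, 2 on 3R and 2 on X. A second set of 4 runs with 16 regions, on 2R, 3R and X, had a median r of 0.908 among themselves and of 0.264 with the first set. Pairs of called regions outside runs had a median r of 0.137. The r within a set follows from the grouping, and that of single regions is not like for like with that of summed runs. The correlations are descriptions over 29 libraries and share each library's depth and composition.

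**Figure D2:**
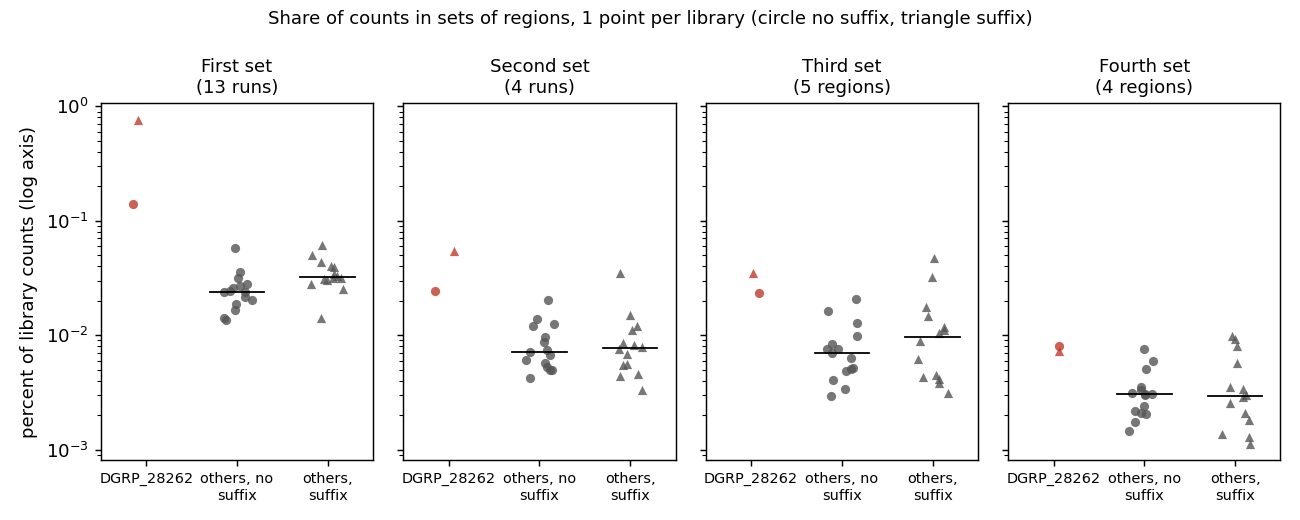
Each point is 1 library, with the percent of its counts that fell in a set of regions on a log axis, DGRP_28262 at the left and the other lines by suffix beside it. Circles have no suffix, triangles have it, and the horizontal lines are medians of the other libraries. In the first set both libraries of DGRP_28262, at 0.141% and 0.767%, lie above all 29 others, while in the fourth set they lie among the highest of the others.

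In the first set, DGRP_28262 had 0.141% of its counts in replicate 1 (95% interval 0.139% to 0.144%) and 0.767% in replicate 2 (0.759% to 0.774%). The other libraries had a median of 0.0239% without the suffix and 0.0323% with it. The next highest were both libraries of DGRP_28123, at 0.0614% and 0.0581%. Replicate 1 of DGRP_28262 was thus 5.90 times and replicate 2 was 23.7 times the median of the other libraries of its kind. The ratio of the library with the suffix to the library without it was 5.43 in DGRP_28262 and at most 3.07 in the other 7 lines with 2 libraries. Both libraries were higher than all others, in regions chosen for being higher in them. Their shares differed from each other by a wider ratio than in any of those 7 lines.

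Single runs of the first set showed the same picture. The longest by number of regions was at 3R:6629973-6637164, with 8 called regions over 7192 bp. It held 1255 counts in replicate 1 and 3087 in replicate 2, which is 0.0130% and 0.0630% of their counts, against 0.00107% to 0.00697% in the 29 others. The gap between DGRP_28262 and the nearest other library was therefore wider than the range of the others in replicate 2. Its region of highest level, with levels not scaled by length, was 3R:6633570-6635304, with 5.49 and 7.69 log2 CPM in DGRP_28262, against 1.84 to 4.33 with a median of 3.21 in the other libraries (log2 fold change 3.67 ± 0.28 SE, edgeR adjusted p = 9.32e-05). The region of the run with the widest fold change, 3R:6630395-6630703, stood at 3.30 and 5.36 log2 CPM in DGRP_28262, against a median of 0.26 and a highest value of 2.34 in the others (log2 fold change 5.05 ± 0.59 SE, adjusted p = 0.00190). At 3R:6630395-6630703 the log2 fold change was above both deviations of the line, 3.53 in replicate 1 and 4.92 in replicate 2. The lowest count of another library there was 0. In neither region did DGRP_28262 overlap with the others.

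The smallest p among all regions belonged to 3L:20325786-20327046 in another run of the first set. Its levels were 4.91 and 7.25 log2 CPM in DGRP_28262, against 1.01 to 3.52 with a median of 2.32 in the others (log2 fold change 4.08 ± 0.26 SE, edgeR adjusted p = 9.32e-05). The called region with the highest level in replicate 2 was 2R:6838362-6839561, with 5.72 and 8.91 log2 CPM in DGRP_28262 and at most 4.38 in the others, from 470 and 2317 counts (log2 fold change 4.91 ± 0.33 SE). Among the regions with the widest gap to all other libraries, X:14201014-14202872 was at 5.60 and 7.85 log2 CPM in DGRP_28262 and at most 4.10 in the others. In all 3 regions the lower library of DGRP_28262 stood above every other library. Replicate 2 stood above replicate 1 by more than 2 on the log2 scale in each.

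The runs of the first set were of several lengths, with some nearly equal. Of the 18 runs, 6 spanned 7351 to 7424 bp, all of the first set, and the 13 runs of the set spanned 4594 to 7424 bp with a median of 7192. Laid over the run at X:3647553-3654976, the other 12 runs shared 51.3% to 86.2% of the bases covered by regions, with a median of 64.1%. The overlap was best in the same orientation for 5 runs and after turning the run round for 7. The closest match was the run at 2R:5614207-5621589, turned round, at 86.2%. Each run was shifted and turned to its best overlap, which raises the overlap, and no expected level was computed, so the values do not show that the layouts are more alike than those of other stretches. Whether the runs share sequence or reads was not tested, since no genome of the build was used.

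**Figure D3:**
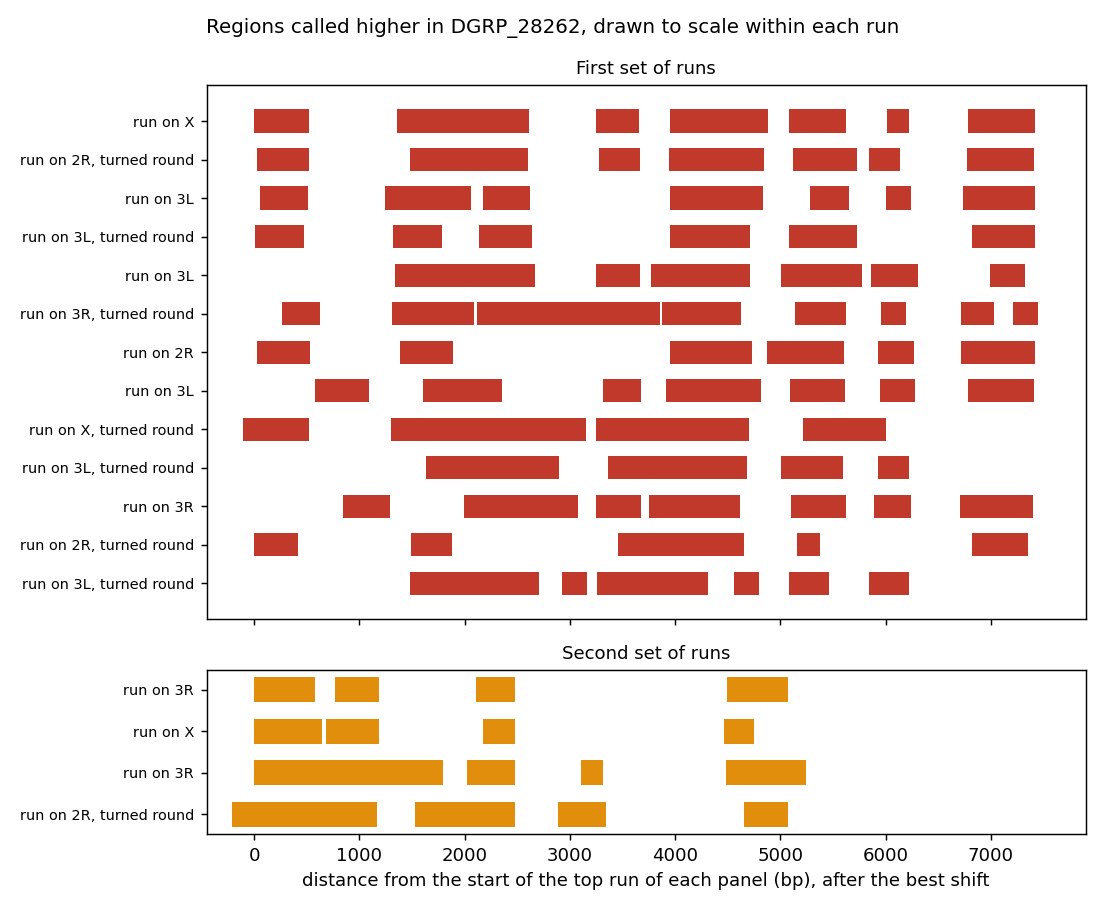
Each row is a run and each bar a called region drawn to scale, as distance in bp from the start of the top run of its panel after the best shift and, where marked, after turning the run round. The placement was chosen to give the largest overlap with the top run, which for the 13 runs of the first set, on 4 arms, is 51.3% to 86.2%. In the second set the overlap is 51.9% to 72.9%.

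The second set was higher in DGRP_28262 by less. It held 0.0245% of the counts in replicate 1 and 0.0547% in replicate 2, against medians of 0.00717% without and 0.00770% with the suffix in the others. The highest other library, replicate 2 of DGRP_29652, held 0.0348% and so lay above replicate 1 of DGRP_28262. Both libraries of DGRP_29652 were the highest of the others in this set, as both of DGRP_28123 were in the first. The 4 runs spanned 4755 to 5290 bp and had median log2 fold changes of 2.87 to 3.33. The ratio of replicate 2 to replicate 1 was 2.23 in DGRP_28262, against 0.634 to 1.70 in the other 7 lines with 2 libraries.

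The remaining run, at 3L:23065480-23071535 with 6 regions, was joined to neither set. Its summed level correlated with the runs of the first set at r = 0.245 to 0.597 and with those of the second at -0.123 to 0.0467 over the 29 other libraries. It held 0.00909% of the counts in replicate 1 and 0.0354% in replicate 2 of DGRP_28262, and at most 0.00487% in the others. Its region 3L:23068215-23068808 stood at 4.06 and 6.19 log2 CPM in DGRP_28262, against a highest value of 2.75 in the others (log2 fold change 3.88 ± 0.29 SE, edgeR adjusted p = 9.32e-05). The run was thus above all other libraries in both replicates.

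Outside the runs, 57 regions were called higher, and the 2 libraries of DGRP_28262 were closer to each other there. The median log2 fold change was 1.68, and the median deviation was 1.35 in replicate 2 and 1.71 in replicate 1. Replicate 2 deviated more in 20 of 57. These regions held 0.244% of the counts in replicate 1 and 0.239% in replicate 2, against 0.0694% to 0.187% in the 29 others. The 57 were called higher in these same 2 libraries, so a pooled share above the median of the others follows from that choice. Both libraries lay above all 29 others in 14 of the 57. Without replicate 1 of DGRP_28262, 12 of the 57 were called, without replicate 2 edgeR called 0, and with a covariate for the X to autosome ratio 9 were called, at median log2 fold changes of 1.39, 1.61 and 1.52.

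Among 8 regions outside runs looked at singly, chosen after their values were seen, X:21405468-21406794 had the largest difference. Its levels were 4.70 and 6.24 log2 CPM in DGRP_28262, against 1.02 to 4.33 with a median of 2.20 in the others (log2 fold change 3.42 ± 0.26 SE, edgeR adjusted p = 9.32e-05). Replicate 2 stood further out than replicate 1 there. The called higher region of highest mean level, 2R:3519779-3520796, had 7.96 and 7.61 log2 CPM in DGRP_28262 from 2222 and 939 counts, against 4.99 to 7.43 with a median of 6.60 in the others (log2 fold change 1.30 ± 0.14 SE, adjusted p = 0.000653). Both libraries were above all 29 others, by a small margin. The next in mean level were 3R:17471625-17472237, with 7.15 and 6.75 log2 CPM in DGRP_28262 against 5.28 to 7.09 in the others, and 2R:20888661-20889825, with 7.03 and 6.92 against 4.80 to 7.17 (log2 fold changes 0.95 ± 0.16 SE and 0.97 ± 0.17 SE, edgeR adjusted p = 0.0209 and 0.0221). In both of these DGRP_28262 overlapped with the others. The region 3R:15939535-15939895 was near the low end of the counts, with 86 and 114 counts, and had levels of 3.31 and 4.58 log2 CPM in DGRP_28262 against a median of 0.93 in the others (log2 fold change 3.00 ± 0.35 SE, adjusted p = 0.00120). There the single library of DGRP_28222, at 4.07, lay between the libraries of DGRP_28262.

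Regions outside runs were grouped in the same way. Regions at 2R:14464341-14465069, 3L:22093911-22094492, X:323469-324312, X:3312949-3313379 and X:3313434-3314346 had a median pairwise r of 0.954 over the 29 other libraries and form the third set, of 5 regions. It held 0.0234% of the counts in replicate 1 and 0.0350% in replicate 2 of DGRP_28262, and medians of 0.00696% without and 0.00965% with the suffix in the others. The line was not alone here, since DGRP_28222 held 0.0475%, above both libraries of DGRP_28262. DGRP_25193 held 0.0323%, above replicate 1 of DGRP_28262. In X:323469-324312, the levels were 6.04 and 6.52 log2 CPM in DGRP_28262, 7.04 in DGRP_28222 and 4.14 in the median of the 29 other libraries (log2 fold change 1.88 ± 0.18 SE, edgeR adjusted p = 0.000251). In X:323469-324312 the library of DGRP_28222 was above both of DGRP_28262, and 27 others were below both. The other 2 regions of this set among the 8 looked at singly, 3L:22093911-22094492 and 2R:14464341-14465069, had log2 fold changes of 1.94 ± 0.18 SE and 1.80 ± 0.18 SE (edgeR adjusted p = 0.000162 and 0.000317). The fourth set, of 4 regions with 1 on 2L and 3 on 3L, had a median r of 0.949 and held 0.00804% and 0.00724% of the counts in DGRP_28262, less than the 0.00973% in DGRP_25185. The last set was a pair, 3L:24161929-24162466 and 3L:24168415-24169227, with r = 0.912, which held 0.00297% and 0.00122% of the counts in DGRP_28262, against 0.00836% in the single library of DGRP_25186.

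The panel split into separate levels at the region with the widest gap between libraries, of the 8 looked at singly. Another split, at 2L:20114919-20115452, is described below. The region 3L:15290369-15291043 had 7.12 and 6.07 log2 CPM in DGRP_28262, among 17 libraries of 13 lines at 5.63 to 7.88. The other 14 libraries, of 10 lines, lay at -0.43 to 3.17. No line with 2 libraries fell on both sides. DGRP_28262 was called higher (log2 fold change 2.43 ± 0.24 SE, edgeR adjusted p = 0.000306) against a mean over both levels, while 3 other libraries were above both of its own. The 4 neighbouring regions within 10000 bp were not called.

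The 7 regions called lower lay 5 on 2L, 1 on 3L and 1 on X. Their median level over all libraries was 4.36 log2 CPM, against 2.24 in the 159 called higher and 3.74 in all tested regions. Median lengths were 459, 526 and 456 bp in the same order. A region can be called lower only where the other libraries hold counts, so its level is not independent of the call. The log2 fold changes of the 7 ran from -2.86 to -1.10 with a median of -1.83. Their median deviation was -1.77 in replicate 2 and -1.82 in replicate 1. DESeq2 called 29 regions lower, and edgeR called 4 without replicate 1 of DGRP_25208, either library of DGRP_28275 or replicate 2 of DGRP_29652. Highest in level was 2L:17242558-17243942, with 4.48 and 4.38 log2 CPM in DGRP_28262 from 197 and 99 counts, against 4.60 to 7.30 with a median of 6.62 in the others (log2 fold change -2.07 ± 0.28 SE, edgeR adjusted p = 0.00375). Both libraries of DGRP_28262 were below all 29 others, and the nearest was the single library of DGRP_25186. The 7 regions within 10000 bp of it had log2 fold changes of -1.06 to -0.46, and none was called.

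Another pair of lower regions lay next to a higher one. At 2L:20106601-20107049, DGRP_28262 had 1.64 and 1.49 log2 CPM from 25 and 12 counts, against 0.79 to 5.59 with a median of 5.06 in the others (log2 fold change -2.86 ± 0.29 SE, edgeR adjusted p = 0.000376). At 2L:20104477-20104935, it had 2.99 and 3.04 log2 CPM, against a median of 5.06 in the others (log2 fold change -1.83 ± 0.31 SE, adjusted p = 0.0209). At a distance of 7869 bp from the first of these, 2L:20114919-20115452 was higher, with 6.02 and 5.44 log2 CPM in DGRP_28262 and a median of 2.74 in the others (log2 fold change 2.54 ± 0.22 SE, adjusted p = 0.000119). Counts in DGRP_28262 were thus lower at 2 regions of this stretch and higher at another.

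That pattern was shared with 5 other lines. The 7 libraries with the highest level at 2L:20114919-20115452, those of DGRP_28262, DGRP_25186, DGRP_25187, DGRP_25194, DGRP_28202 and DGRP_28222, stood at 5.31 to 6.02 log2 CPM there, against at most 3.55 in the remaining 24. The same 7 libraries had the lowest levels at 2L:20106601-20107049, at 0.79 to 2.77, against 3.40 to 5.59 in the remaining 24. At 2L:20104477-20104935, 6 of the 7 were among the 7 lowest. At 2L:20114919-20115452 and 2L:20106601-20107049 the 7 libraries did not overlap with the remaining 24. The 2 tested regions in between, 2L:20107189-20107690 and 2L:20109343-20109628, had log2 fold changes of -0.78 and -1.37 (edgeR adjusted p = 0.587 and 0.193). The next 4 regions, at 2L:20115759-20116232, 2L:20116876-20117149, 2L:20117930-20118378 and 2L:20120295-20121523, had 1.26, 0.72, -1.56 and -0.21 (edgeR adjusted p = 0.0807, 0.600, 0.231 and 0.810). None of the 6 passed the threshold. The groups of libraries were read from the values, so no test was made.

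**Figure D4:**
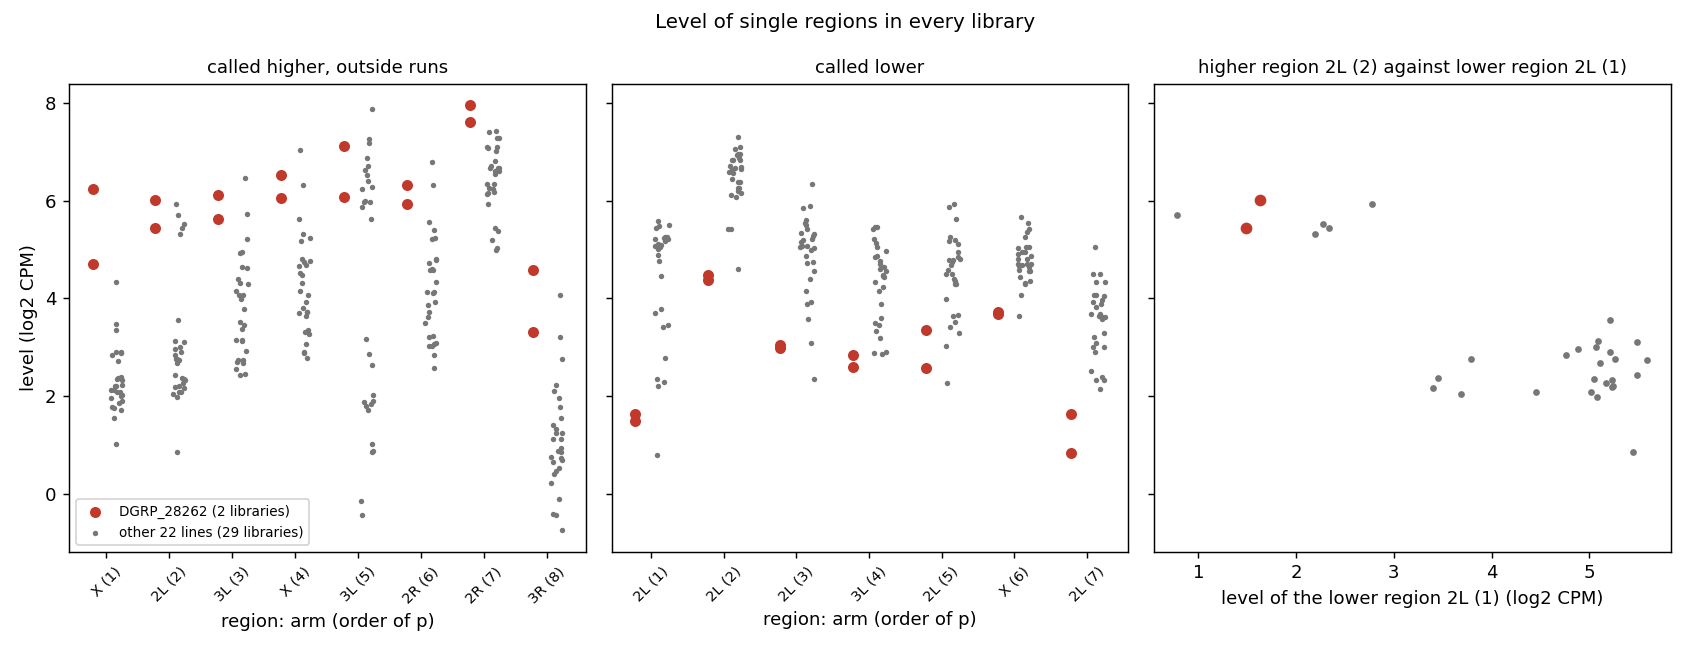
The left and middle panels show the level in log2 CPM of 8 regions called higher outside runs and of the 7 called lower, with the 2 libraries of DGRP_28262 as large points left of the 29 other libraries. The right panel sets the higher region 2L:20114919-20115452 against the lower region 2L:20106601-20107049, where the 2 libraries of DGRP_28262 and 5 others lie at 5.31 or more on the y axis and at 2.77 or less on the x axis, apart from the remaining 24.

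Of the other 4 lower regions, 2 were below all 29 other libraries and 2 were not. The region 2L:19737298-19737735 had 1.64 and 0.82 log2 CPM in DGRP_28262, from 25 and 7 counts, against 2.13 to 5.04 in the others (log2 fold change -2.38 ± 0.44 SE, edgeR adjusted p = 0.0436). The region 3L:18025881-18026310 had 2.59 and 2.84 against 2.87 to 5.46 (log2 fold change -1.61 ± 0.28 SE, adjusted p = 0.0273). Both were below all 29 others, by margins of under 1 on the log2 scale. At X:4988293-4988931 and 2L:15838392-15838954, log2 fold changes were -1.10 and -1.53, and the lowest other library lay below DGRP_28262 in each.

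On the X chromosome, a larger share of regions was lower in both libraries of DGRP_28262 than on the arms 2L, 2R, 3L and 3R. Of the 5435 tested regions on X, 13.8% were higher and 49.6% lower in both libraries, against 36.6% and 26.4% on the arms 2L, 2R, 3L and 3R. The median log2 fold change was -0.20 on X and 0.05 on those arms. On chromosome 4, with 247 tested regions, 19.4% were higher and 24.7% lower, at a median of -0.005. These shares use the signs by which regions were kept, and they were not computed for the other lines. The shift was larger in replicate 1, with a median deviation on X of -0.30, than in replicate 2, with -0.07. On X, 23 regions (0.423%) were called higher, against 0.517% of all regions and 0.234% to 0.832% on 2L, 2R, 3L and 3R. Of the 23, 15 lay in runs. On X 1 region was called lower.

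**Figure D5:**
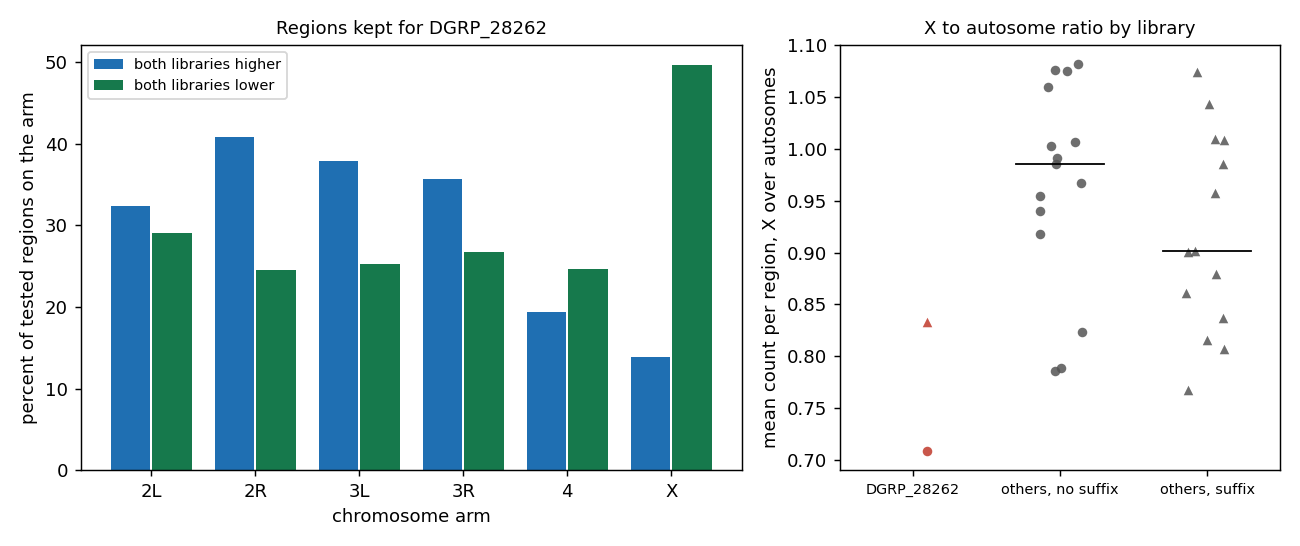
The left panel gives, for each chromosome arm, the percent of tested regions that were higher (left bar) or lower (right bar) in both libraries of DGRP_28262. The right panel gives the mean count of X regions over that of regions on 2L, 2R, 3L and 3R, 1 point per library, with medians of the other lines as lines and an axis that does not start at 0. Replicate 1 of DGRP_28262, at 0.708, is the lowest of all 31 libraries.

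The X to autosome ratio, which divides the mean count per X region by the mean count per region of the main autosomal arms, was also low. It was 0.708 in replicate 1 of DGRP_28262, against 0.786 to 1.08 with a median of 0.985 in the 15 others without the suffix. It was 0.833 in replicate 2, against 0.767 to 1.07 with a median of 0.901 in the 14 others with the suffix, 3 of which were lower. The mean deviation of the line, -0.159, had p = 0.0167 by an exact two-sided permutation test over the 240 choices of 1 library of each kind. Adjusted over 4 such measures, p was 0.0667, which misses the threshold of 0.05. Most of the 240 choices join libraries of different lines, so these p-values do not measure the spread between lines. This holds for the other measures tested in this way. The mean deviation was -0.0789 without replicate 1 (exact permutation p = 0.533), -0.239 without replicate 2 (p = 0.0625, the smallest that 16 choices allow) and -0.116 with median in place of mean counts (p = 0.113). With this ratio as a covariate, edgeR called 93 of the 102 regions in runs, 9 of the 57 outside runs and 2 of the 7 lower regions. Median log2 fold changes were taken over all regions of each class, called or not. With the covariate they were 4.16 in runs, 1.52 outside runs and -1.65 in the lower regions. Without it they were 3.76, 1.68 and -1.83. The regions that lost their call were not looked at apart.

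The other 3 measures of whole libraries gave no difference past the threshold. The scores on the first principal component of the libraries were 30.1 and 22.0 in DGRP_28262, inside the range of the others of each kind (exact permutation p = 0.292, adjusted p = 0.389). Chromosome 4 held 0.763% and 0.648% of the counts in DGRP_28262, against 0.661% to 0.886% in the others without the suffix and 0.656% to 0.862% in those with it (adjusted p = 0.404). The 500 regions of highest mean level held 15.7% and 14.9% in DGRP_28262, against 12.1% to 15.4% and 13.1% to 15.5% (adjusted p = 0.158). Replicate 1 was above all others of its kind in the share of those 500 regions, and replicate 2 was below all others of its kind in the share of chromosome 4. Across regions, the fold change of DGRP_28262 correlated with the slope along the first component at r = 0.552, a description of values that share libraries. The steepest region along that component, 2L:17560215-17560935, had 3.42 and 3.11 log2 CPM in DGRP_28262 against 1.55 to 7.58 in the others, and was not called (log2 fold change -1.15 ± 1.61 SE, edgeR adjusted p = 0.897).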

How the data were processed

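The 31 libraries were measured by ATAC-seq, and their 31 columns of raw counts per region were deposited by the authors. The build dm3 and the tools Bowtie2, MACS2, featureCounts and DESeq2 are named, with no version, per the submitters' processing notes. For duplicate reads, reads with several matches and the transposase offset, the handling was not given in the sources used here. Samples were grouped by the genotype label.

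A region was tested if at least 2 libraries reached a CPM that equals 10 counts in a library of median size. The 1 region left out had at most 47 counts. edgeR 4.0.16 in R 4.3.3 used TMM factors, robust quasi-likelihood F-tests and a term per line and for the suffix, and contrasted DGRP_28262 with the mean of the other 22 lines. A prior count of 2 was added for log2 CPM. Standard errors are the fold change over the root of F. limma 3.58.1 and DESeq2 1.42.0 were alternatives. Totals ranged from 1110755 to 12758783 counts.

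A rule chose the regions to name: the 10 higher and up to 8 lower called regions of smallest p, up to 6 each way with the widest gap to all other libraries, the 4 of highest level, the longest run, the steepest along the first component and those nearest to the threshold. The 8 regions outside runs, the sets and the neighbours of called regions were chosen after their values were seen. All members, lists and tests were chosen with earlier results of these data known.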

Additional observations from a re-analysis of the deposited data

How the results depend on the processing

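The counts of 159 higher and 7 lower regions in DGRP_28262 moved by over 1.5 times under the following choices. Higher regions numbered 57 where the mean count was at least 50, 103 with a covariate for the X to autosome ratio, 528 with a covariate for the first principal component and 325 with libraries of positive first component score only. Lower regions numbered 2 at an adjusted p of 0.01 and with the X to autosome ratio, 11 with total counts only and in limma voom, 20 in the 16 libraries of the 8 lines with 2 libraries, 29 in DESeq2, 97 with positive scores only and 264 with the first component. Total counts alone moved the median of all regions to -0.06 on the log2 scale. Leaving out in turn each of the 16 libraries of the 8 lines with 2 libraries gave 0 to 168 higher and 0 to 8 lower regions. Both zeros came without replicate 2 of DGRP_28262 (edgeR, 2069 higher and 449 lower at an unadjusted p under 0.05). Without a library of the 7 other such lines the counts were 144 to 168 and 4 to 8. The 15 lines with 1 library were not left out. The cause of these changes was not tested, except that a mean count of 50 left 21758 regions to test.

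Of the 102 regions in runs, 26 were called where the mean count was at least 50, and 0 to 102 when 1 library was left out. Of the 57 outside runs, 24 were called at an adjusted p of 0.01, 30 with a mean count of 50, 9 with the X to autosome ratio, and 0 to 55 when 1 library was left out. Both zeros again came without replicate 2 of DGRP_28262. A mean count of 50 removed some of the 102 regions in runs before testing, so not all that went uncalled there had been tested. The counts over runs were chosen after seeing the data. limma called 235 regions higher and DESeq2 202, which included all 102 in runs in each.

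The share of regions kept was 63.7% where the mean count was at least 50 and 59.1% with the first component removed, against 62.9%. In the other 7 lines with 2 libraries it was 36.7% to 66.9%. No interval is given, since the regions share 2 libraries and are not independent. The mean deviation of the chromosome 4 share, -0.042 percentage points, was 0.00678 without replicate 2 and -0.0910 without replicate 1. The region 2L:17560215-17560935 turned from a log2 fold change of -1.15 to 0.63 with the first component as a covariate and 0.64 with positive scores only, with no call in any of these. No paired analysis was possible because the labels of these libraries hold no replicate number. The suffix, the label that recurs across lines, is a term of the fit, and without it 155 regions were higher and 7 lower. Some lower regions rest on few counts, as with 7 and 25 in DGRP_28262 at 2L:19737298-19737735.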
